A study of Rattus norvegicus with 8 samples.

Results

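The dual-specificity phosphatases with a numbered Dusp symbol were followed in primary rat hepatocytes exposed to cadmium. Every probe set of the array whose annotated gene symbol was Dusp followed by a number was taken, which gave 18 probe sets of 14 genes, out of 15866 probe sets and 10411 genes with a single symbol. The genes were Dusp1, Dusp2, Dusp3, Dusp4, Dusp5, Dusp6, Dusp9, Dusp11, Dusp12, Dusp14, Dusp19, Dusp22, Dusp23 and Dusp26. Hepatocytes from 4 rats were plated on collagen, kept overnight in albumin-free medium and then given cadmium chloride at 4 µM for 3 h (4 cultures, cadmium) or medium alone (4 cultures, control). Each rat gave 1 cadmium and 1 control culture, so the samples of a group came from separate animals and the comparison is paired by rat. The strain, sex and age of the rats are not given in the labels. RNA was read on 8 one-colour Affymetrix RAE230A arrays, and every value below is the authors' MAS5 signal, a linear brightness scaled within each array, or its log2.

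MAP kinases are switched on by phosphorylation of a threonine and a tyrosine in one loop, and the MAP kinase phosphatases remove both phosphates. Some of these phosphatases are products of immediate-early genes that ERK signalling itself induces and act in the nucleus (Dusp1, Dusp2, Dusp4, Dusp5), whereas Dusp6 and Dusp9 act on ERK in the cytoplasm. The remaining Dusp genes on the array encode small or atypical enzymes that lack the MAP kinase binding domain, several of which have substrates other than MAP kinases.

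The sequences upstream of Dusp5 and Dusp1 are shown because these were the genes with a probe set that passed the test for a difference between cadmium and control cultures. Both are the 250 bases before the annotated start of transcription, from RefSeq on the rat assembly GRCr8, given 5′ to 3′ on the plus strand. The Dusp5 stretch is chr1:262543524-262543773, just before the gene at 262543774 to 262557201, with 2 adjoining CArG boxes in capitals, the element that serum response factor binds. The Dusp1 stretch is chr10:17184603-17184852, just before the gene at 17184853 to 17187646, with a full cyclic AMP response element in capitals.
Dusp5: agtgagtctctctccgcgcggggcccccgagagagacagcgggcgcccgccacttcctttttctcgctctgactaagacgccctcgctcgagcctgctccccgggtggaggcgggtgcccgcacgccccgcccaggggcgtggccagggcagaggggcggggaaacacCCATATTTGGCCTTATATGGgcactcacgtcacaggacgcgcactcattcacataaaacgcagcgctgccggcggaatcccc
Dusp1: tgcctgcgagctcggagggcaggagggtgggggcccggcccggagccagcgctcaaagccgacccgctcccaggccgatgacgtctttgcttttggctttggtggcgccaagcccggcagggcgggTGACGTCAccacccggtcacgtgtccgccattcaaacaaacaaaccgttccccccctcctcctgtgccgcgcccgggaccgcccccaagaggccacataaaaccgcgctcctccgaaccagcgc

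Windows from 250 bases before to 50 bases after the start were held for 12 of the 14 genes, as 14 windows because Dusp14 had 3 starts. Both strands were searched, and a match describes letters only. The CArG box was found in 1.64% of 33469 such rat windows and, among the Dusp windows, in that of Dusp5, as CCATATTTGG at -82 to -73 and CCTTATATGG at -72 to -63. Of all windows, 7 (0.0209%) held 2 or more CArG boxes. Repeats were counted over all windows for this motif only, the one repeated in Dusp5, so their share for other motifs is not known. The cyclic AMP response element TGACGTCA was in 1.83% of all windows and in those of Dusp1 (-124 to -117) and Dusp11 (-103 to -96). The shorter form TGACGT, which also lies inside each full element, was in 7.94% of all windows. The shorter form stood alone at -172 to -167 in Dusp1, at -56 to -51 in Dusp5 on the minus strand, and in Dusp23. The metal response element (TGCACNC or TGCGCNC), the target of the zinc- and cadmium-responsive factor Mtf1, was in 24.2% of all windows and in those of Dusp1, Dusp11, Dusp14 and Dusp22. It was repeated within the window of Dusp22 and within a window of Dusp14. The AP-1 site (TGACTCA or TGAGTCA, 4.63% of windows) was found in Dusp14, the ETS core CCGGAAG (8.75%) and a heat shock element pair GAANNTTC (8.59%) in Dusp19, and the antioxidant response element core TGACNNNGC (12.1%) in Dusp3. No searched motif matched in the windows of Dusp2, Dusp6, Dusp9 and Dusp12.

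**Figure D1:**
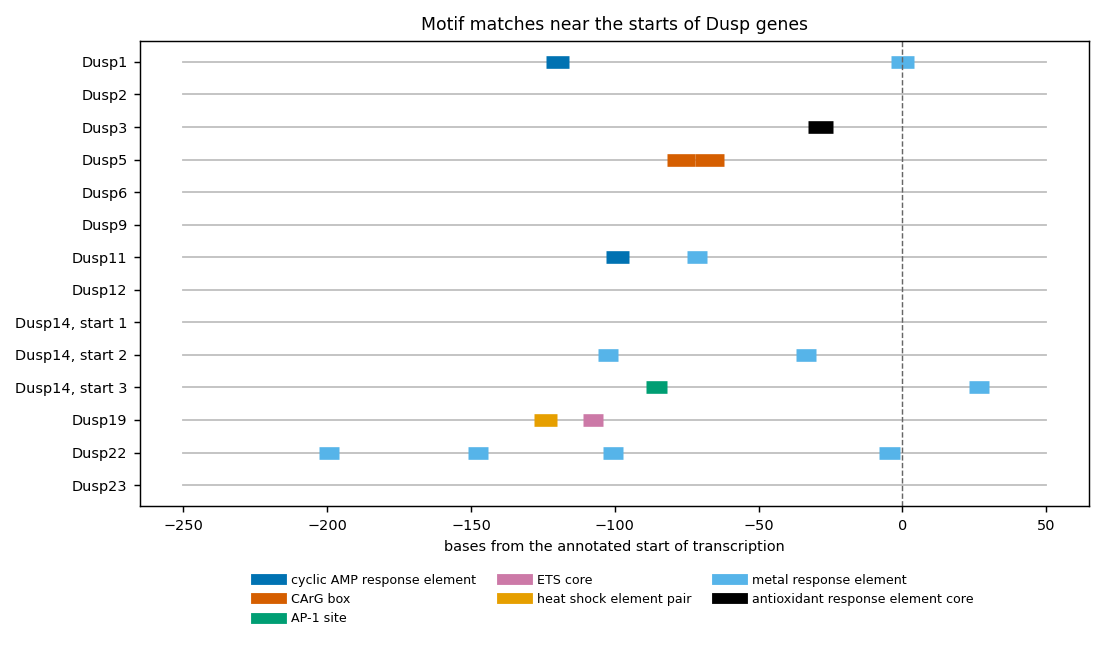
Motif matches in the promoter windows of 12 Dusp genes, by distance in bases from the annotated start of transcription (dashed line). Coloured blocks are matches on either strand, and the shorter TGACGT form is not drawn. The paired CArG boxes of Dusp5 lie between -82 and -63.

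All 9 hepatocyte markers on the array passed the filter on low signals described below and 0 passed the limma test (at an unadjusted p under 0.05, 1 was higher and 1 lower, where 7.40% of all tested genes were higher and 13.0% lower), with summed signals of 104940 to 120190 on cadmium arrays and 103020 to 117560 on control arrays. Of the markers of other liver cells, 2 of 6 Kupffer cell, 4 of 10 stellate cell, 0 of 6 endothelial, 4 of 7 cholangiocyte and 2 of 9 lymphocyte markers passed that filter. Among these, the cholangiocyte marker Epcam was at 2110 with cadmium and 2213 in controls, the macrophage marker Cd68 at 1691 with cadmium and 1445 in controls, and the stellate cell marker Reln at 561 with cadmium and 1133 in controls (means, n = 4 each). Reln was lower with cadmium (log2 change -1.09, adjusted p = 0.00331), and its part in the Dusp results was not tested. The other tested stellate cell markers did not pass, with log2 changes of 0.06 for Acta2, 0.30 for Col1a1 and 0.02 for Gfap. The tested macrophage markers went in opposite directions and neither passed, with Cd68 at 0.16 and Csf1r at -0.26. The array median was 180 to 186.4 on cadmium arrays and 192.2 to 197.25 on control arrays (exact two-sided permutation p = 0.0286, the smallest that 4 against 4 allows, and 0.143 adjusted over 5 array measures). The 3′ to 5′ signal ratio of Gapdh, a measure of RNA integrity, was 1.05 ± 0.06 with cadmium and 1.00 ± 0.04 in controls (SD, n = 4, exact permutation p = 0.286). That of beta-actin was 1.56 ± 0.10 with cadmium and 1.51 ± 0.18 in controls (SD, n = 4, exact permutation p = 0.771). The highest beta-actin ratio, 1.79, was on the control array of rat 4, which also had the lowest signal of both Dusp1 probe sets. A link between them was not tested. Rats 3 and 4 were on chip lot 1 and rats 1 and 2 on lot 2. All cadmium arrays ran on one fluidics module and all control arrays on another, so module and treatment cannot be told apart.

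Of the 18 Dusp probe sets, 12 of 10 genes passed the filter, which dropped the dimmest 40% of the array. The filter used the mean log2 signal, with a cut that equals a signal of about 118. Cadmium was compared with control by a limma fit with the rat as a block, and a probe set passed where p, adjusted by the Benjamini-Hochberg method over the 9519 tested, was under 0.05. A probe set of Dusp5 and 1 of the 2 probe sets of Dusp1 were higher with cadmium, 0 were lower, and 10 did not pass. At an unadjusted p under 0.05, 3 of the 12 were higher and 1 was lower, where 7.42% of all tested probe sets were higher and 13.0% lower. Among all tested probe sets, 2.86% were called higher and 2.29% lower. The median log2 change was 0.02 over the 12 Dusp probe sets and -0.06 over all tested ones. By class, 2 of 4 tested probe sets of the nuclear, inducible genes passed (median 0.75). This compares with 0 of 1 for the cytoplasmic class and 0 of 7 for the small or atypical class (median -0.21). The 4 nuclear probe sets stand for 3 genes, because 2 of them belong to Dusp1, so they are not independent. With each gene on its brightest probe set, the rule used for the pathway lists below, Dusp5 alone passed. The signals of cadmium and control arrays did not overlap for 3 of the 12 tested Dusp probe sets, where 11.5% of all tested probe sets were without overlap. In these bulk cultures, fewer cells of a type and less RNA per cell cannot be told apart.

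**Figure D2:**
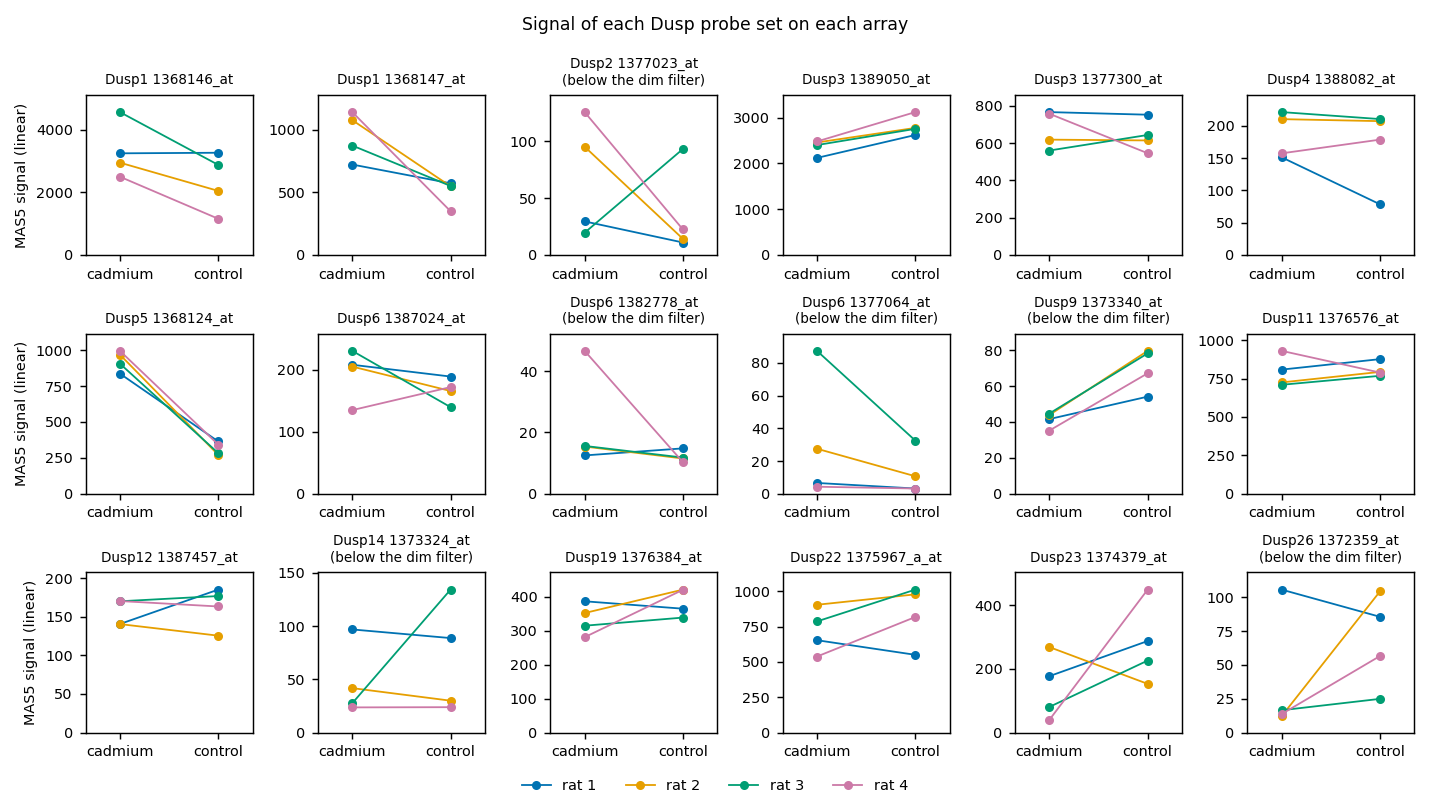
MAS5 signal (linear, each panel with its own axis starting at 0) of each of the 18 Dusp probe sets in cadmium (left) and control (right) cultures, with a line joining the cultures of 1 rat. Dusp5 was above its controls in all 4 rats, between 836 and 995 with cadmium, and Dusp23 lay between 39.7 and 268.5 with cadmium and between 153 and 449 in controls.

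Dusp5, a nuclear phosphatase that acts on ERK and anchors it there, had the lowest adjusted p of the family. Its signal was 836, 968.5, 906 and 995 in the cadmium cultures of rats 1 to 4, against 364, 271, 283 and 343 in their control cultures. Every cadmium culture was above every control culture. The means were 926 ± 70.7 with cadmium and 315 ± 45.3 in controls (SD, n = 4 each). The log2 change was 1.56 (SE 0.13, 95% confidence interval 1.27 to 1.85, adjusted p = 0.000227), a 2.95-fold higher signal. It placed Dusp5 at rank 53 of 9519 tested probe sets ordered by log2 change. Within single rats the change was 1.20, 1.83, 1.67 and 1.53 on the log2 scale. Within chip lot 1 it was 1.60 and within lot 2 it was 1.51, and it passed in both. After median centring of the arrays it was 1.64. Dusp5 passed in all 25 alternative settings, with log2 changes from 1.47 to 1.68.

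Dusp1, a nuclear phosphatase of p38, JNK and ERK that many stresses induce, was measured by 2 probe sets, which differed in size and in the test. On probe set 1368147_at the signal was 721, 1075, 873 and 1139 in the cadmium cultures of rats 1 to 4, against 572, 547.5, 550.4 and 349 in the control cultures. The groups did not overlap, and the control culture of rat 4 was the lowest of the 8. The means were 952 ± 191 with cadmium and 505 ± 104 in controls (SD, n = 4 each). This probe set was 1.89-fold higher with cadmium (log2 change 0.92, SE 0.20, 95% confidence interval 0.47 to 1.37, adjusted p = 0.0343). The change was 0.33, 0.97, 0.66 and 1.70 on the log2 scale in rats 1 to 4, the largest in the rat with the low control.

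On probe set 1368146_at, the signal of Dusp1 was 3248, 2950.4, 4565 and 2500.3 in the cadmium cultures, against 3267, 2048, 2879.9 and 1158 in the control cultures. The groups overlapped, and rat 1 showed almost no difference. The log2 change was 0.57 (SE 0.15, 95% confidence interval 0.22 to 0.92), and its adjusted p of 0.0749 missed the threshold. By rat it was -0.008, 0.53, 0.66 and 1.11. The change on 1368147_at exceeded that on 1368146_at by 0.34, 0.45, -0.0005 and 0.60 on the log2 scale in rats 1 to 4, and this difference was not tested. Averaged over both probe sets, Dusp1 changed by 0.75 (SE 0.17, adjusted p = 0.0508), so the gene passed or missed the threshold by which probe set stood for it.

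The call on 1368147_at was not stable. It ended in rats 3 and 4 of chip lot 1 taken alone (log2 change 1.18, adjusted p = 0.176) and in rats 1 and 2 of lot 2 (0.65, adjusted p = 0.0826), and 1368146_at changed by 0.89 in lot 1 and 0.26 in lot 2, passing in neither. It also ended without rat 2 (0.90, adjusted p = 0.142) or rat 3 (1.00, adjusted p = 0.0767), but not without rat 1 (1.11, adjusted p = 0.0314) or rat 4 (0.66, adjusted p = 0.0198). With single arrays left out of the unpaired fit, it ended without the cadmium array of rat 2 or 4 (adjusted p = 0.0843 and adjusted p = 0.0605) and without the control array of rat 2, 3 or 4 (adjusted p = 0.0589, adjusted p = 0.0535 and adjusted p = 0.0537). With a rat or an array left out, the change on 1368147_at lay between 0.66 and 1.11. Probe set 1368146_at passed without rat 1 (0.77, adjusted p = 0.0261) and after median centring (0.65, adjusted p = 0.0416). It changed by 0.39 without rat 4 (adjusted p = 0.0853), by 0.41 without the cadmium array of rat 3 (adjusted p = 0.584) and by 0.27 without the control array of rat 4 (adjusted p = 0.654), and its range with a rat or an array left out was 0.27 to 0.77.

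**Figure D3:**
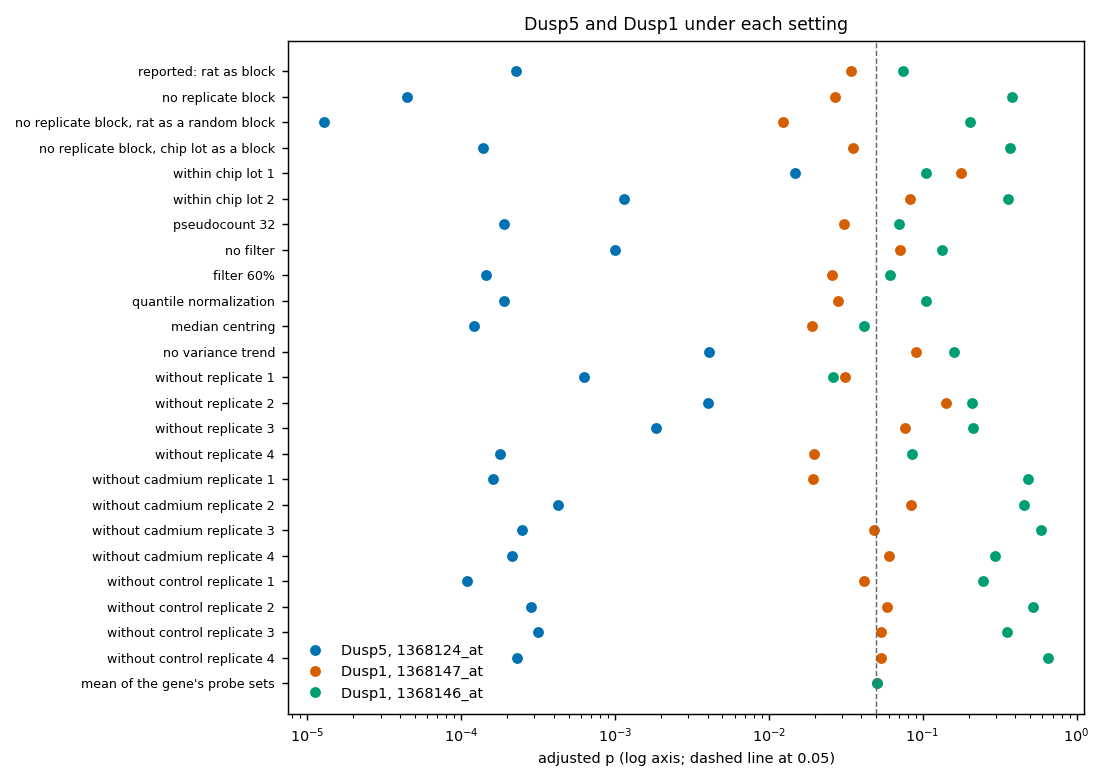
Adjusted p (log axis, dashed line at 0.05) of Dusp5 and of both Dusp1 probe sets in the reported fit and under the alternatives that refit the model. Dusp5 stays left of the line in every setting drawn, whereas Dusp1 1368147_at lies on both sides of it, and Dusp5 has no point in the lowest setting because it has 1 probe set.

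Dusp4, a nuclear phosphatase of ERK, JNK and p38 that mitogens induce, did not pass. Its signal was 151, 210.2, 221 and 157 in the cadmium cultures of rats 1 to 4, against 78.4, 207, 210.3 and 178.5 in the control cultures. The control culture of rat 1 stood alone at the low end, and the other 7 values lay between 151 and 221. The log2 change was 0.21 (SE 0.22, 95% confidence interval -0.29 to 0.71, adjusted p = 0.638), and it was -0.03 without rat 1. Dusp2, a nuclear phosphatase best known from activated immune cells, was below the filter. It was at 29.6, 95.4, 19.6 and 125.9 with cadmium and 11, 14.2, 93.4 and 22.5 in controls, higher with cadmium in 3 of 4 rats. Its change in the fit on all probe sets was 1.06 (SE 0.79, adjusted p = 0.589).

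Dusp6, the cytoplasmic ERK phosphatase whose level often follows ERK activity, was measured by 3 probe sets and none passed. Probe set 1387024_at, which alone passed the filter, was at 208, 205, 230.3 and 135 in the cadmium cultures of rats 1 to 4, against 189, 166, 139.6 and 172 in the control cultures. The groups overlapped, with 3 of 4 rats higher and rat 4 lower with cadmium. The means were 194.5 ± 41.4 with cadmium and 166.5 ± 20.5 in controls (SD, n = 4 each), a log2 change of 0.20 (SE 0.21, 95% confidence interval -0.26 to 0.67, adjusted p = 0.631). The change was 0.03 without rat 3, 0.39 without rat 4, and 0.11 and 0.37 without the cadmium array of rat 3 and of rat 4. The interval reaches a log2 change of 0.67, so the arrays did not resolve whether Dusp6 was higher.

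Both other Dusp6 probe sets were below the filter, and their values come from the fit on all probe sets. Probe set 1377064_at was at 6.6, 27.5, 87.3 and 4.3 with cadmium and at 3.2, 10.7, 32.5 and 3.2 in controls, higher with cadmium in 4 of 4 rats although the rats differed far more than the treatments. Its change was 0.97 (SE 0.42, 95% confidence interval -0.002 to 1.94, adjusted p = 0.331). Probe set 1382778_at was at 12.5, 15.4, 15.6 and 46.6 with cadmium and at 14.8, 11.5, 11.8 and 10.3 in controls, and its change of 0.65 (SE 0.50, adjusted p = 0.599) was largest in rat 4.

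Dusp9, the other cytoplasmic ERK phosphatase on the array, was dim and below the filter. It was at 41.6, 43.9, 44.7 and 35.2 in cadmium cultures, against 54.1, 79.6, 78.2 and 67.1 in control cultures, lower with cadmium in 4 of 4 rats and without overlap. Its change was -0.73 (SE 0.33, 95% confidence interval -1.51 to 0.05, adjusted p = 0.357), so it did not pass.

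**Figure D4:**
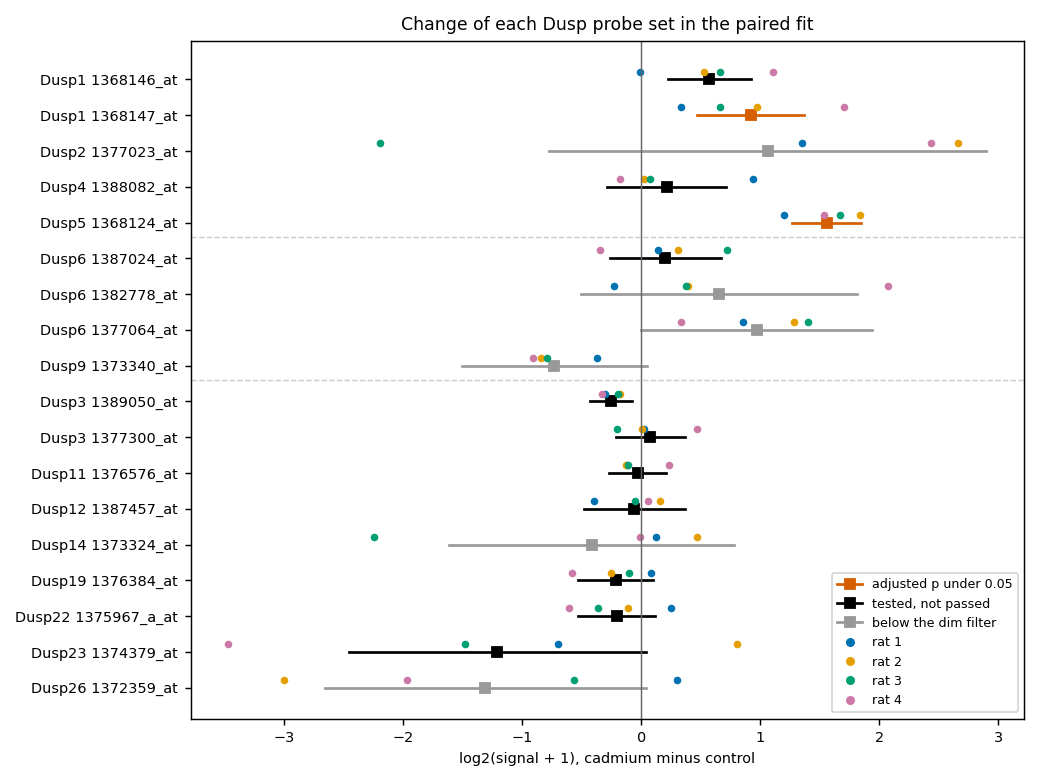
Log2(signal + 1) change, cadmium minus control, of each Dusp probe set. Squares with bars are the fitted change with its 95% confidence interval (orange, adjusted p under 0.05; black, tested and not passed; grey, below the filter), small points are the 4 rats, and dashed lines part the nuclear, cytoplasmic and small or atypical classes. Dusp5 at 1.56 and Dusp1 1368147_at at 0.92 are the probe sets in orange.

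The small or atypical phosphatases gave 0 calls among 7 tested probe sets in the limma fit, and 1, of Dusp3, was lower at an unadjusted p under 0.05, a share near the 13.0% of all tested probe sets. Dusp3 is a small phosphatase of ERK and JNK, and this was its probe set 1389050_at. Its signal was 2119, 2455, 2399 and 2477.5 in the cadmium cultures of rats 1 to 4, against 2618, 2773, 2752 and 3118 in the control cultures. All 4 cadmium cultures were below all 4 controls, but the log2 change of -0.25 (SE 0.08, 95% confidence interval -0.43 to -0.08) did not pass (adjusted p = 0.108). The other Dusp3 probe set, 1377300_at, did not share it, with 766, 619, 560.3 and 758 in cadmium cultures against 752, 614, 644 and 546 in control cultures. Its change was 0.08 (SE 0.13, adjusted p = 0.779), and the mean of both probe sets changed by -0.09 (adjusted p = 0.599).

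Dusp23, a small phosphatase with few assigned substrates, was at 177, 268.5, 80.4 and 39.7 in cadmium cultures, against 287.5, 153, 226 and 449 in control cultures. The direction differed between rats, with rat 2 higher and rat 4 far lower with cadmium. Its change of -1.21 had a wide interval (SE 0.55, 95% confidence interval -2.46 to 0.04, adjusted p = 0.258). It was -0.46 without rat 4, -0.72 without the cadmium array of rat 4 alone and -1.88 without rat 2. Dusp11, a phosphatase of RNA 5′ ends, was at 808, 725, 709.5 and 930.3 in cadmium cultures and at 876.5, 793, 768 and 789 in control cultures. It changed by -0.03 (SE 0.11, 95% confidence interval -0.27 to 0.21, adjusted p = 0.901).

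Dusp12, a zinc-binding phosphatase that was isolated from rat as a partner of glucokinase, changed by -0.06 (SE 0.19, adjusted p = 0.896). It averaged 155 ± 17.1 with cadmium and 163 ± 26.4 in controls (SD, n = 4 each). Dusp19, a small phosphatase linked to JNK signalling, averaged 333 ± 45.8 with cadmium and 386 ± 41.2 in controls, a change of -0.22 (SE 0.14, adjusted p = 0.433). Dusp22, which is linked to JNK activation, averaged 721 ± 159 with cadmium and 840 ± 211 in controls, a change of -0.21 (SE 0.14, adjusted p = 0.454). In both genes, 3 of 4 rats were lower and rat 1 was higher with cadmium.

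Dusp14 and Dusp26 were below the filter and scattered. Dusp14, a small phosphatase best known in T cells, was at 96.8, 41.7, 27.5 and 23.6 with cadmium and 88.7, 29.9, 134.2 and 23.8 in controls, a change of -0.42 (SE 0.51, adjusted p = 0.770). Dusp26, best known from nervous tissue, was at 105.7, 12.2, 16.5 and 13.7 with cadmium and 85.6, 104.4, 24.9 and 56.6 in controls. Its change was -1.31 (SE 0.58, 95% confidence interval -2.66 to 0.04, adjusted p = 0.343), with rat 1 against the other 3 rats.

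The genes around the phosphatases were taken from 9 lists with 141 genes, of which 102 were on the array and 72 passed the filter, each on its brightest probe set. Of these 72 genes, 11 were higher with cadmium, 1 was lower and 60 did not pass, with a median change of 0.004. Over all 7099 tested genes, 2.73% were called higher and 2.21% lower, with a median of -0.06. An unadjusted p under 0.05 is used below for lists without a call, for the MAP kinases and for the transcription factors. At that level, 7.40% of these genes were higher and 13.0% lower. Most of the calls lay in a single list: 8 of 15 tested ERK-linked transcription factors were higher and 0 lower (median 0.80). The lists were chosen with earlier results of these data known, so this count is not an unbiased share. At an unadjusted p under 0.05, 9 of the 15 were higher and 2 lower, Creb1 (-0.51) and Ier3 (-0.51), which is not itself a transcription factor. The name of the list does not show which kinase acted, and kinase activity was not measured. Fos, Fosb and Jund were among the listed genes below the filter. Egr1 was at 12988 ± 1790.2 with cadmium and 257 ± 47.7 in controls (SD, n = 4 each; change 5.66, SE 0.12, adjusted p = 6.11e-08). Fosl1, a partner of Jun in AP-1, rose by 2.68 (SE 0.17, adjusted p = 4.57e-05), and Egr2 rose by 2.43 (SE 0.21, adjusted p = 0.000366).

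The kinase cascade gave few calls. Of 6 tested MAP kinases, 1 was higher and 0 lower (median -0.22), the atypical kinase Mapk6, at 2151 ± 392 with cadmium and 1278 ± 90.9 in controls (SD, n = 4 each; change 0.74, SE 0.11, adjusted p = 0.00834). Its call ended within chip lot 1 (adjusted p = 0.201) and without rat 2 (adjusted p = 0.0571). At an unadjusted p under 0.05, 1 MAP kinase was higher and 1 lower, where 13.0% of all tested genes were lower. The lower one was Mapk14, with a change of -0.46 in limma (SE 0.11, adjusted p = 0.0522) and the same direction in every rat. Among 4 MAP kinase kinases 0 passed in limma and 0 had an unadjusted p under 0.05 (median -0.04), with Map2k1 at 0.11 (adjusted p = 0.520) and Map2k3 at -0.06 (adjusted p = 0.749). Among 10 MAP3 kinases 0 passed, while 5 were lower and 0 higher at an unadjusted p under 0.05, the level at which 13.0% of all tested genes were lower (median -0.24), with Map3k1 at -0.25 (adjusted p = 0.228) and Araf at -0.07 (adjusted p = 0.742). Among 9 RAS proteins, adaptors and scaffolds 0 passed and 1 was higher at an unadjusted p under 0.05 (median 0.03), with Rras at -0.09 (adjusted p = 0.672) and the phosphatase Ptpn11 at 0.07 (adjusted p = 0.720).

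Of 6 kinases that MAP kinases activate, 1 was lower (median -0.14): Mknk2, which phosphorylates the cap-binding protein eIF4E, at 483 ± 44.8 with cadmium and 875 ± 358 in controls (SD, n = 4 each; change -0.78, SE 0.17, adjusted p = 0.0360). Its call ended in 17 of 25 alternatives, among them the fit without the rat as a block (adjusted p = 0.110), each chip lot, and the removal of rat 1, 2 or 3 (adjusted p = 0.102, adjusted p = 0.0723 and adjusted p = 0.0934). It also did not pass in the unpaired fits that left out any single array except the control of rat 2 (adjusted p from 0.147 to 0.237), and without the control array of rat 4 its change was -0.53.

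Other brakes on the pathway were mostly not called. Of 5 further negative regulators of RAS and ERK, 1 was higher (median -0.01): Errfi1, a feedback inhibitor of the EGF receptor, at 5454 ± 828 with cadmium and 2151 ± 346 in controls (SD, n = 4 each; change 1.34, SE 0.13, adjusted p = 0.000635). Of 9 other phosphatases that act on MAP kinases or belong to such complexes, 1 was higher (median 0.13): Ppp2r2a, a regulatory subunit of protein phosphatase 2A, changed by 0.56 (SE 0.11, adjusted p = 0.0234). That call ended without rat 1, 2 or 3 (adjusted p = 0.0815, adjusted p = 0.0957 and adjusted p = 0.0699) and within either chip lot (adjusted p = 0.289 and adjusted p = 0.0906). Of 8 dual-specificity phosphatases without a Dusp symbol 0 passed and 1 was higher at an unadjusted p under 0.05 (median -0.01), with Ptp4a1 at 0.32 (adjusted p = 0.0522) and Ptpmt1 at -0.08 (adjusted p = 0.707). Ptp4a1 passed after median centring (adjusted p = 0.0233), with a 60% filter (adjusted p = 0.0449), without rat 4 (adjusted p = 0.0413) and at an adjusted threshold of 0.1.

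**Figure D5:**
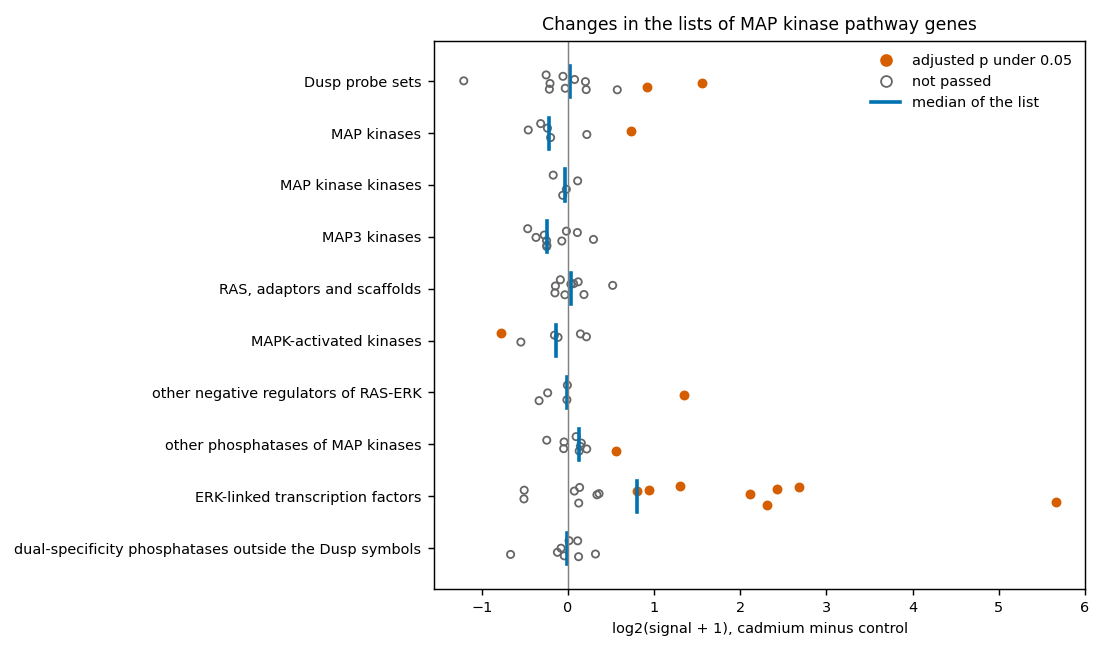
Log2(signal + 1) change, cadmium minus control, of the 12 tested Dusp probe sets and of the tested genes of 9 pathway lists. Filled points passed at an adjusted p under 0.05, open points did not, and vertical bars are list medians. Of the filled points, 8 lie in the ERK-linked transcription factors, where Egr1 lies at 5.66.

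The patterns most like the called Dusp probe sets were sought by Pearson correlation of log2 signals over the 8 arrays, among 7089 genes, as a description in which the arrays share the treatment and the rats. Dusp1 1368147_at was most like Wdr26 (r = 0.992), Srf (r = 0.980) and Nppb (r = 0.977), and 78 genes had r above 0.9. Srf encodes serum response factor and Nppb a natriuretic peptide, and their changes were 0.80 (adjusted p = 0.0359) and 1.47 (adjusted p = 0.0574). Wdr26 changed by 0.35 (adjusted p = 0.0967). Dusp5 was most like Zfand2a (r = 0.997), Hspa1a (r = 0.994) and Errfi1 (r = 0.993), and 114 genes had r above 0.9. Zfand2a is induced by arsenite and other proteotoxic stress and Hspa1a encodes an inducible heat shock protein. Their changes were 3.99 (adjusted p = 1.99e-06) and 5.92 (adjusted p = 2.81e-07), well above the 1.56 of Dusp5. Between Dusp1 1368147_at and Dusp5 themselves, r was 0.85 over the 8 arrays, and between the 2 Dusp1 probe sets it was 0.64.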

How the data were processed

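RNA of 8 hepatocyte cultures (4 cadmium, 4 control, 8 µg of total RNA each, per the labels' protocols) was measured on 1 array each. The deposited table of the series holds a linear signal intensity per probe set that the authors made with MAS5, of unstated version, per the submitters' processing notes. The values show a mean of about 500.2 per array without the lowest and highest 2%. The other deposited files, 1 per array, hold run settings and no expression, per the file headers. They gave the chip lot, fluidics module and scan day. MAS5 summarizes each array alone, so dim values are noisy, and the number of arrays limits the precision.

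Of 15866 probe sets without 57 controls, 12783 had 1 gene symbol in the platform annotation, 312 carried several, and 2771 carried none. The probe sets have no coordinates in the sources used here, and promoter windows come from RefSeq (GRCr8). Deposited signals were used as log2(signal + 1), which understates changes of dim genes. A filter on the mean of these log2 values removed the dimmest 40%, leaving 9519. In limma 3.58.1 under R 4.3.3, lmFit with the rat as a block was followed by eBayes (trend on), two-sided, and p-values were adjusted after Benjamini and Hochberg across the tested probe sets; members below the filter come from the same fit on all probe sets. The script was tested on simulated data.

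The labels tie both samples of a number to 1 rat, which is the pairing. On the values, both arrays of a rat deviated together from their group means (r = 0.350, 0.251, 0.475 and 0.196 for rats 1 to 4). Arrays of different rats did not (r at most -0.008). Both arrays of a rat were also scanned on the same day, a different day for each rat, so this check cannot tell rat from scan day. Deviations from a group mean cancel within the group, which by itself lowers correlations between different rats. The pairing therefore rests on the labels. No arrays were duplicates (log2 correlation at most 0.953). The members, lists and markers were chosen with earlier results of these data known. Named are every Dusp probe set and the 3 genes most correlated with each called Dusp probe set. Of each list, up to 3 passing genes are named in order of absolute change, of those moving the same way in 4 of 4 rats. Where none passed, the 2 brightest are named. Reln, Epcam, Cd68, Csf1r, Acta2, Col1a1, Gfap, Mapk14, Ier3, Creb1, Fos, Fosb and Jund were named after their values were seen. Alternatives were fits without the block, with the rat as a random block or the chip lot as a block, fits within each lot, no filter, a 60% filter, a pseudocount of 32, median centring, quantile normalization, eBayes without the trend, an adjusted threshold of 0.1, a 1.5-fold minimum, averaging the probe sets of a gene, every probe set counted for the lists, and each rat or array left out.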

Additional observations from a re-analysis of the deposited data

Results flagged for a closer look

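Among 36 groups of 4 Dusp signals, 4 had a sample far from the other 3 by Dixon's test on the log2 scale, and chance alone marks about 1 in 20 groups. Dusp1 1368147_at was at 348.9 in the control culture of rat 4, where the other controls were at 547.5 to 571.6; the cadmium-minus-control change of that rat, 1.70, was the largest of the 4. Dusp4 was at 78.4 in the control culture of rat 1, with the other controls at 178.5 to 210.3. Dusp6 1382778_at, below the filter, was at 46.6 in the cadmium culture of rat 4, with the other cadmium cultures at 12.5 to 15.6. Dusp26, also below the filter, was at 105.7 in the cadmium culture of rat 1, with the other cadmium cultures at 12.2 to 16.5.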

How the results depend on the processing

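Dusp5 kept its direction and its call in all 25 alternatives (adjusted p from 1.29e-05 to 0.0148), whereas Dusp1 1368147_at kept its direction in all 26 and lost its call in 12. Without the rat as a replicate block, adjusted p was 4.45e-05 for Dusp5, 0.0271 for Dusp1 1368147_at and 0.379 for Dusp1 1368146_at, and no other Dusp call changed; over all probe sets, 200 were then higher and 136 lower (272 and 218 in the paired fit), and 0 pathway genes lower. The count of Dusp probe sets called higher, 2 in the paired fit, was 1 within chip lot 1, within lot 2, without the filter (Dusp1 1368147_at adjusted p = 0.0715) and without the variance trend (adjusted p = 0.0905), and 1 to 3 with a rat or array left out; 0 were lower in any of them by limma, where 1 had an unadjusted p under 0.05 in the paired fit. Dusp1 1368146_at passed after median centring (0.65, adjusted p = 0.0416). Over all probe sets, higher and lower counts were 77 and 10 in lot 1, 156 and 105 without the trend, and 121 to 309 and 44 to 290 with a rat or array left out; the lower count was 112 in lot 2, 113 without the filter, 119 after median centring (366 higher), 458 at a threshold of 0.1 and 133 with a 1.5-fold minimum. Pathway genes called lower, 1 in the paired fit, were 3 with the rat as a random block or at a threshold of 0.1, 2 with the 60% filter, 0 with the lot as a block, in either lot, without filter or trend or after centring, and 0 to 1 with a rat or array left out, where 7 to 12 were higher. Directions turned for changes that had not passed, and the cause was not tested: in lot 1, Dusp4 (-0.055), Dusp11 (0.062) and Dusp12 (0.0020); in lot 2, Dusp14 (0.30), Dusp22 (0.068), Dusp23 (0.056), Map2k3 (0.0052), Araf (0.046), Rras (0.0051) and Ptpmt1 (0.066); after median centring, Dusp11 (0.048), Dusp12 (0.021), Map2k3 (0.018) and Araf (0.0078); after quantile normalization, Dusp12 (0.013); and for Dusp3 1377300_at as the mean of its gene's probe sets (-0.088). With a rat or array left out, changes ranged from -0.12 to 0.35 for Dusp4, -0.12 to 0.020 for Dusp11, -0.18 to 0.055 for Dusp12, -0.83 to 0.19 for Dusp14, -0.054 to 0.17 for Dusp3 1377300_at, -0.12 to 0.010 for Map2k3 and -0.18 to 0.00062 for Ptpmt1. They kept their sign but moved by over 1.5 times for Dusp2 (0.53 to 2.15), Dusp6 1382778_at (0.18 to 0.95), Dusp6 1377064_at (0.20 to 1.59), Dusp19 (-0.31 to -0.09), Dusp22 (-0.40 to -0.08) and Dusp26 (-2.01 to -0.74), none of which passed in any of these fits. The median of all tested probe sets was -0.06 as reported, 0.02 after median centring and -0.04 after quantile normalization. Dim members (Dusp2, Dusp9, Dusp14, Dusp26 and both dim Dusp6 probe sets) lie in the range where MAS5 signals scatter most, so these arrays could show only large changes in them.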
